A study of Mus musculus with 32 samples.

Results

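The 10 genes described here, Rgs2, Rgs4, Rgs7, Rgs8, Rgs9, Rgs10, Rgs14, Rgs16, Rgs17 and Rgs20, encode regulators of G protein signalling, and were taken by symbol from the 54532 genes of the striatal count table. All 10 passed the filter on low counts and were among the 16610 genes tested. The mRNA was measured by RNA sequencing of the whole striatum of 32 mice at 6 months of age, to ask how loss of the mismatch repair gene Msh3 alters the transcriptome of a Huntington's disease mouse. There were 8 wild-type, 8 Msh3-/-, 8 zQ175 and 8 zQ175:Msh3-/- mice, bred as littermates on a C57BL/6J background, of both sexes (5 males and 3 females among the zQ175:Msh3-/- mice, 4 of each sex in the other genotypes). In zQ175 mice a lengthened CAG repeat is knocked into the endogenous Htt gene, inherited in this cross from the father. Msh3-/- mice carry a germline knockout on both alleles, made by CRISPR editing with guides in exons 3 and 8, and zQ175:Msh3-/- mice carry both changes.

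A G protein-coupled receptor switches on a heterotrimeric G protein by making its α subunit exchange GDP for GTP, and RGS proteins bind the active α subunit and speed up GTP hydrolysis, which ends the signal sooner. The family is divided by sequence into the R4 subfamily (Rgs2, Rgs4, Rgs8 and Rgs16), the R7 subfamily (Rgs7 and Rgs9), the RZ subfamily (Rgs17 and Rgs20) and the R12 subfamily (Rgs10 and Rgs14). The spiny projection neurons of the striatum integrate dopamine, adenosine, acetylcholine and endocannabinoid signals through such receptors, and a long splice form of Rgs9 is known as a striatal RGS protein that acts downstream of dopamine and opioid receptors.

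Positions are those of GENCODE M21 on GRCm38. Of the 10 genes, 6 lie on chromosome 1: Rgs20 from 4909576 to 5070285 and Rgs2 from 143999338 to 144004161, both on the minus strand, the neighbours Rgs8 from 153653025 to 153700323 and Rgs16 from 153740349 to 153745468 on the plus strand, and Rgs4 from 169741477 to 169747642 and Rgs7 from 175059087 to 175492500 on the minus strand. The others are Rgs9 on chromosome 11, from 109225355 to 109298129, Rgs10 on chromosome 7, from 128373621 to 128418758, and Rgs17 on chromosome 10, from 5825663 to 5922400, all on the minus strand, and Rgs14 on the plus strand of chromosome 13, from 55369732 to 55384687. The counts may have been made without regard to strand, and 3 members share exon sequence with a gene on the other strand. Rgs8 shares 70 bases with Gm29529, which had at most 7 reads in any mouse, and Rgs16 shares 236 bases with Gm28513, which had at most 1 read. Rgs20 shares 127 bases with Atp6v1h, a proton pump subunit gene with a mean of 145 CPM in wild-type and 136 CPM in zQ175 mice (log2 fold change -0.09, adjusted p = 0.0774).

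Promoter sequence is shown for Rgs4 and Rgs9, the members with the highest levels, which both fell in zQ175 mice, and for Rgs2, which covaried with immediate early genes. Each stretch is the 250 bases before the RefSeq start on GRCm38.p6, read on the strand of the gene. Rgs4 is at chr1:169747643-169747892, Rgs9 at chr11:109298182-109298431 and Rgs2 at chr1:144004150-144004399. Capitals mark the cyclic AMP response element core TGACG, the GC box GGGCGG and the TATA box TATAAA, each searched on both strands.
Rgs4: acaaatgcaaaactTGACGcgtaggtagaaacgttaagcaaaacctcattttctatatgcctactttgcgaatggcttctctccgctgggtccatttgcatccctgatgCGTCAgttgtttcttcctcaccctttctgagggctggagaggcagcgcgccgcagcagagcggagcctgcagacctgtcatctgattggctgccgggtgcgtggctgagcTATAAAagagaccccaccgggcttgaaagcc
Rgs9: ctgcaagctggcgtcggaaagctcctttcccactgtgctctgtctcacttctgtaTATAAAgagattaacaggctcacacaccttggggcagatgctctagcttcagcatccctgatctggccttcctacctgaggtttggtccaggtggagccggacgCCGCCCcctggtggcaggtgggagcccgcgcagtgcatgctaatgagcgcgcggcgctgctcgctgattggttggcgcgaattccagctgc
Rgs2: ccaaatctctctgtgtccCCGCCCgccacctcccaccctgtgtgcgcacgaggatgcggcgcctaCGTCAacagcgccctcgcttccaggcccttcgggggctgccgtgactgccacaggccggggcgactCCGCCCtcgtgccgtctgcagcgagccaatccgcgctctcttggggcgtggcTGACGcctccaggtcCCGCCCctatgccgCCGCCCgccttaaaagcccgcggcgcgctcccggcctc
A TATA box began 31 bases before the start of Rgs4 and 195 bases before the start of Rgs9. The Rgs2 stretch held 2 such cores and 4 GC boxes, the Rgs4 stretch 2 cores and no GC box. RefSeq windows were found for 8 of the 10 genes, 10 windows in all, with none for Rgs14 and Rgs20. The core TGACG was in 3 of these 10 windows and in 17.8% of all 32851 promoter windows, the GC box in 5 and in 32.7%, and the TATA box in 2 and in 12.4%. The full element TGACGTCA, which contains the core, was in 0 of the 10 and in 1.55% of all windows, and the E box CACGTG was in 1 and in 6.02%.

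The deposited counts summed to between 12359347 and 25030335 per mouse. Msh3 itself had a mean of 24.5 CPM in wild-type mice (22.9 to 27.5, n = 8) and 24.4 CPM in zQ175 mice (22.8 to 27.4), against 11.8 CPM in Msh3-/- mice (10.4 to 13.6) and 12.9 CPM in zQ175:Msh3-/- mice (11.1 to 14.2), with no overlap between carriers and non-carriers of the knockout. Whole-gene counts of Msh3 include exons outside the edited ones. Of 6 markers of spiny projection neurons, Ppp1r1b, Drd1, Drd2, Adora2a and Penk fell and Tac1 did not pass the test (log2 fold change 0.06, adjusted p = 0.422) in zQ175 mice. The 6 summed to between 4127 and 5059 CPM in wild-type and between 2175 and 2907 CPM in zQ175 mice. Of 5 pan-neuronal and 5 astrocyte markers 0 passed both an adjusted p under 0.05 and a 1.2-fold difference by edgeR. An unadjusted p under 0.05 was found for 1 and 3 of them, with a smallest adjusted p of 0.0208 and 0.000243, and all differed by less than 1.2-fold. Of the other cell types, 3 of 5 endothelial markers fell, with a median log2 fold change of -0.33 over the 5. Of the oligodendrocyte markers 1 of 5 fell, of the pericyte markers 1 of 4 and of the thalamic markers 1 of 4. The tissue also held variable amounts of RNA of neighbouring regions: the summed level of 6 cortical excitatory neuron markers ran from 47.8 to 307 CPM in wild-type, from 50.4 to 460 in Msh3-/-, from 39.3 to 397 in zQ175 and from 133 to 664 in zQ175:Msh3-/- mice, and that of 4 choroid plexus markers from 19.2 to 2914 CPM over all mice.

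The levels of the 10 genes per transcript length spanned more than 2 orders of magnitude in wild-type mice. In TPM (transcript counts scaled by length and library size, n = 8), Rgs4 was highest at 597 ± 16.9 (SD), followed by Rgs9 at 561 ± 39.3, and the values of these 2 overlapped among mice. Rgs8 at 125 ± 7.53, Rgs2 at 112 ± 14.7, Rgs20 at 81.8 ± 10.3, Rgs14 at 70.7 ± 6.44 and Rgs10 at 67.5 ± 5.40 formed a middle group in which each gene overlapped with the next. Rgs7 at 49.9 ± 1.90, Rgs17 at 23.2 ± 2.77 and Rgs16 at 3.98 ± 1.46 came last, and no value of these 3 overlapped with that of a neighbour in the order. In zQ175 mice Rgs9 at 323 ± 25.2 TPM and Rgs4 at 318 TPM (260 to 405) were still the highest of the 10.

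**Figure D1:**
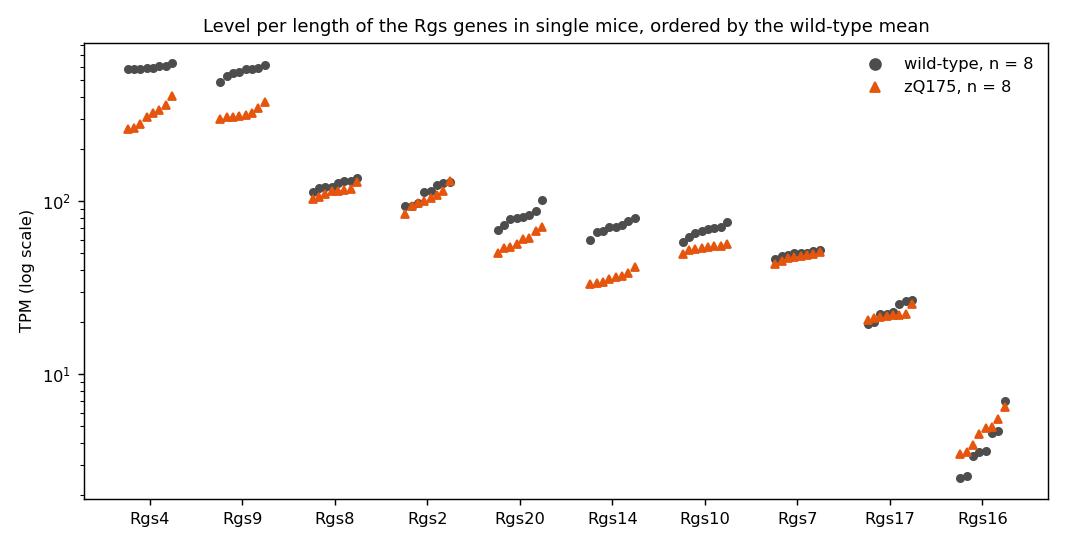
Levels of the 10 Rgs genes in single wild-type and zQ175 mice (TPM on a log axis, 8 mice per genotype, each point 1 mouse), with genes ordered by the wild-type mean. Rgs4 and Rgs9 lie above all others in both genotypes, and Rgs16 is lowest, at 3.98 TPM in wild-type mice. The wild-type and zQ175 points are apart for Rgs4, Rgs9, Rgs14 and Rgs10.

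The first comparison was that of zQ175 with wild-type mice. Of the 10 genes, 5 fell (Rgs4, Rgs9, Rgs10, Rgs14 and Rgs20), 0 rose and 5 did not pass both thresholds, which were an adjusted p under 0.05 and at least a 1.2-fold difference. Over all genes tested 11.6% were called, 6.89% as lower and 4.70% as higher, so that 40.6% of the called genes were higher. Of the set of genes that limma called on log2(TPM + 0.1), 59.9% were higher. The median log2 fold change of the 10 genes was -0.25, and that of all genes tested was 0.01. In CPM, 5 of the 10 genes had no overlap between zQ175 and wild-type mice, and they were the 5 that fell. Over all genes tested, called or not, 6.63% had groups that did not overlap. The calls and the overlap come from the same values, so that 1 is no separate support for the other. The summed level of the 10 genes was 1896 to 2114 CPM in wild-type and 1164 to 1493 CPM in zQ175 mice. Rgs4 and Rgs9 weigh most in these sums, with means of 760 and 588 CPM in wild-type and 390 and 323 CPM in zQ175 mice. In whole tissue, fewer cells of a type and less RNA per cell cannot be told apart.

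**Figure D2:**
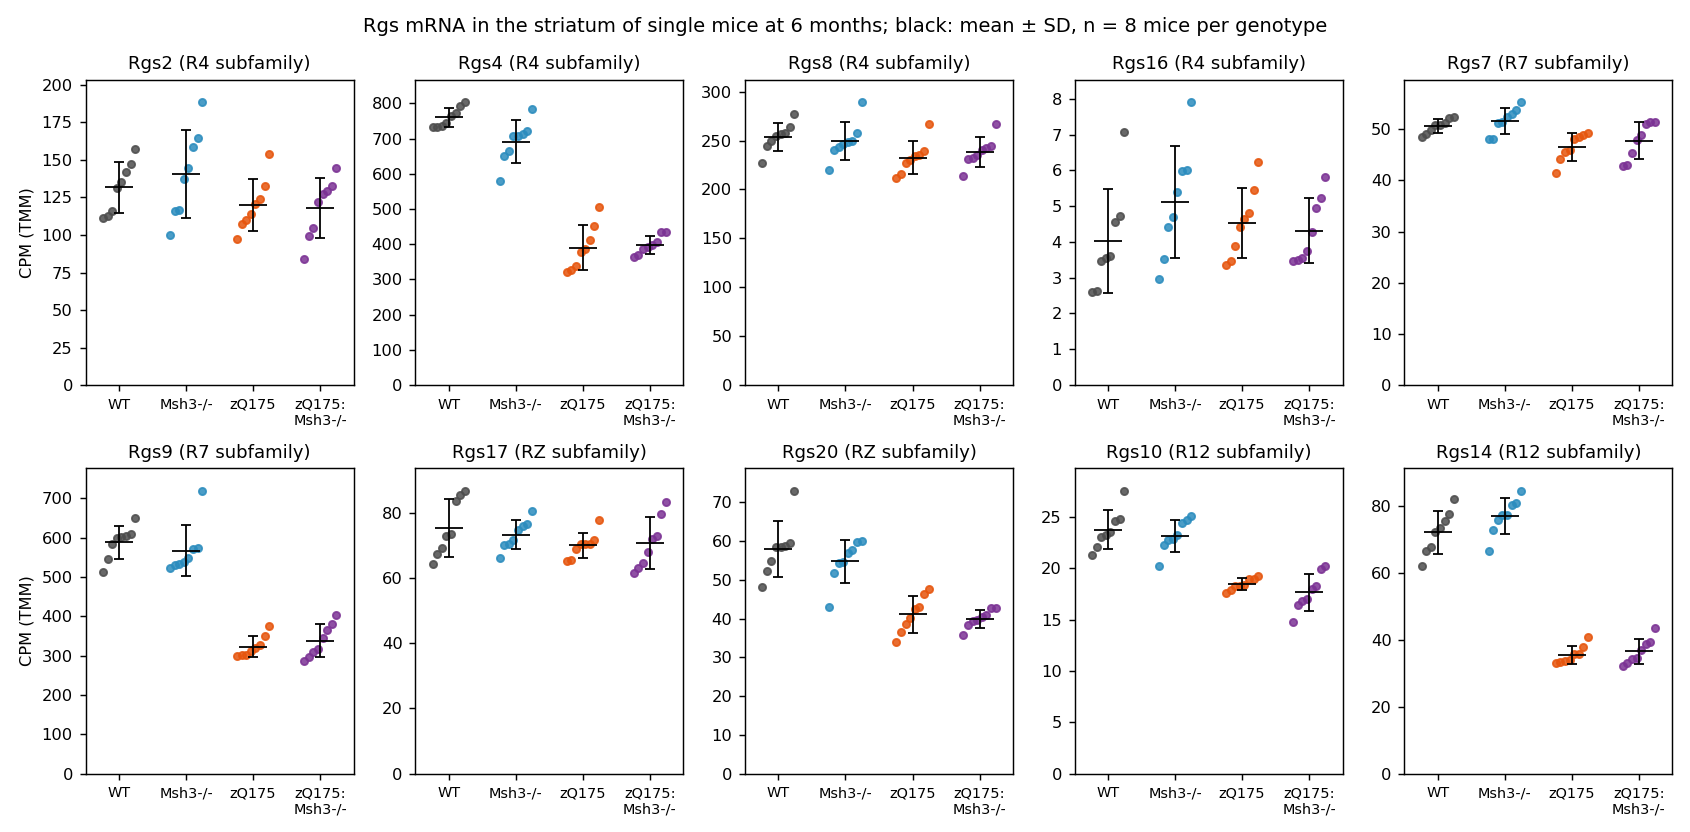
CPM of the 10 Rgs genes in single mice (TMM-normalised, linear axes from 0), by genotype, with the mean and SD of 8 mice in black. Rgs4, Rgs9, Rgs20, Rgs10 and Rgs14 separate each zQ175 group from the group of the same Msh3 genotype, and the other 5 genes overlap. For Rgs4 the wild-type mice lie between 732 and 803 CPM and the zQ175 mice between 321 and 505 CPM.

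Of the 4 R4 genes Rgs4 was the one that fell in zQ175 mice. Rgs4, which acts on Gi, Go and Gq α subunits, ran from 732 through a median of 755 to 803 CPM in wild-type mice, and from 321 through 383 to 505 CPM in zQ175 mice. The spread was wider in the zQ175 group, with an SD of 64.4 against 27.5 CPM, and its highest mouse stayed well under the lowest wild-type mouse. The log2 fold change was -0.96 ± 0.0689 (SE, adjusted p = 6.49e-13), which placed zQ175 mice at 51.3% of the wild-type level, and an exact two-sided permutation test gave p = 0.000155, the smallest that the arrangements of 8 against 8 mice allow.

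Rgs2, which prefers Gq and is itself induced by neuronal activity, ran from 111 through 134 to 157 CPM in wild-type and from 97.0 through 117 to 154 CPM in zQ175 mice. These ranges overlapped, with the lowest zQ175 mice below the wild-type range. The log2 fold change of -0.13 ± 0.120 was not called (adjusted p = 0.455, 95% interval -0.38 to 0.11). Rgs8, expressed in striatal and Purkinje neurons, ran from 227 through 256 to 277 CPM in wild-type and from 212 through 232 to 267 CPM in zQ175 mice, with a log2 fold change of -0.13 ± 0.0470 that passed the adjusted p (0.0420) and not the fold threshold. Rgs16, the gene next to Rgs8, was scarce, at 2.59 to 7.07 CPM in wild-type and 3.36 to 6.22 CPM in zQ175 mice. Its log2 fold change of 0.16 ± 0.189 had a 95% interval of -0.22 to 0.55 (adjusted p = 0.581), the widest of the 10 genes.

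In the R7 subfamily, Rgs9 fell and Rgs7 was lower by less than the fold threshold. Rgs9 ran from 511 through a median of 600 to 649 CPM in wild-type mice and from 298 through 316 to 375 CPM in zQ175 mice. All zQ175 mice lay below all wild-type mice, at 55.0% of the wild-type level (log2 fold change -0.86 ± 0.0678, adjusted p = 5.22e-12). Rgs7, a widely expressed neuronal RGS protein that acts on Go, ran from 48.4 through 50.8 to 52.4 CPM in wild-type and from 41.5 through 47.0 to 49.3 CPM in zQ175 mice. The 2 Rgs7 ranges overlapped at their edges, and the log2 fold change was -0.12 ± 0.0406 (adjusted p = 0.0241).

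Of the RZ genes, which favour Gz and other Gi-class subunits, Rgs20 fell and Rgs17 was not called. Rgs20 ran from 48.3 through 58.6 to 72.9 CPM in wild-type and from 33.9 through 41.4 to 47.6 CPM in zQ175 mice, so that the lowest wild-type mouse was just above the highest zQ175 mouse. The log2 fold change was -0.49 ± 0.0708 (adjusted p = 1.74e-06), and on the TPM scale the 2 groups overlapped, at 68.0 to 102 in wild-type and 50.2 to 71.3 in zQ175 mice. Rgs17 ran from 64.2 through 73.1 to 86.6 CPM in wild-type and from 65.1 through 70.3 to 77.7 CPM in zQ175 mice (log2 fold change -0.11 ± 0.0613, adjusted p = 0.206). The zQ175 values of Rgs17 lay within the wild-type range.

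Both R12 genes fell. Rgs14, a scaffold that also binds Ras and Rap proteins and inactive Gi through its GoLoco motif, showed the largest change of the 10 genes, from 62.1, 72.6 and 81.9 CPM (lowest, median and highest) in wild-type to 33.0, 34.9 and 40.8 CPM in zQ175 mice. The log2 fold change of -1.02 ± 0.0580 (adjusted p = 5.14e-16) placed zQ175 mice at 49.2% of wild-type, and Rgs14 ranked 15th by p of the 16610 genes. Rgs10, a short RGS protein of neurons and microglia, ran from 21.3 through 23.4 to 27.5 CPM in wild-type and from 17.6 through 18.3 to 19.2 CPM in zQ175 mice. The zQ175 mice were close together and all below the wild-type mice, at 77.7% of the wild-type level (log2 fold change -0.36 ± 0.0538, adjusted p = 2.08e-06). In a test against a 1.2-fold change in place of no change Rgs10 was not called (adjusted p = 0.172). Of 5 microglial markers, 0 were called by edgeR in zQ175 mice, and 3 had an unadjusted p under 0.05 (smallest adjusted p 0.0022). All 5 had log2 fold changes between -0.17 and -0.05, under the fold threshold. The summed level of these markers was 246 to 295 CPM in wild-type and 237 to 274 CPM in zQ175 mice. Their part in the Rgs10 value was not tested.

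The zQ175 comparison was repeated between mice that lack Msh3, zQ175:Msh3-/- against Msh3-/-, which shares no mouse with the first. Of the 10 genes, 5 fell and 0 rose, and they were Rgs4, Rgs9, Rgs10, Rgs14 and Rgs20 again. Over all genes 10.6% were called, 5.96% as lower and 4.68% as higher, and groups did not overlap in 5.39% of genes. Of the 10 genes, the same 5 did not overlap between the groups in CPM. In TPM 2 of these 5 did overlap. Rgs10 was at 57.9 to 72.0 TPM in Msh3-/- and 45.2 to 60.2 TPM in zQ175:Msh3-/- mice. Rgs20 was at 61.5 to 82.7 TPM and 51.7 to 64.1 TPM.

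Rgs4 ran from 579 through a median of 708 to 785 CPM in Msh3-/- mice and from 364 through 395 to 435 CPM in zQ175:Msh3-/- mice (log2 fold change -0.80 ± 0.0687, adjusted p = 7.11e-11). Rgs9 ran from 522 through 543 to 718 CPM and from 287 through 331 to 402 CPM (log2 fold change -0.75 ± 0.0677, adjusted p = 1.96e-10). In both genes the highest mouse with zQ175 was well below the lowest without it. Rgs14 ran from 66.4 through 77.3 to 84.3 CPM and from 32.2 through 35.7 to 43.4 CPM (log2 fold change -1.08 ± 0.0582, adjusted p = 2.95e-16), again the largest change of the 10 genes. Rgs20 ran from 43.0 through 55.8 to 60.2 CPM in Msh3-/- and from 35.9 to 42.8 CPM in zQ175:Msh3-/- mice, so that the groups were just apart (log2 fold change -0.45 ± 0.0716, adjusted p = 1.04e-05). Rgs10 ran from 20.2 through 23.1 to 25.1 CPM in Msh3-/- and from 14.8 through 17.5 to 20.2 CPM in zQ175:Msh3-/- mice (log2 fold change -0.39 ± 0.0546, adjusted p = 7.99e-07). The 2 Rgs10 groups met at their edges without crossing. Among the genes that were not called, log2 fold changes lay between -0.26 for Rgs2 (adjusted p = 0.125) and -0.05 for Rgs17 (adjusted p = 0.590), with -0.25 for Rgs16 (adjusted p = 0.377), -0.11 for Rgs7 (adjusted p = 0.0422) and -0.07 for Rgs8 (adjusted p = 0.335). Against wild-type mice, which also served in the first comparison, zQ175:Msh3-/- mice had the same 5 genes lowered and 0 raised, with 6.49% of all genes called as lower and 5.50% as higher.

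**Figure D3:**
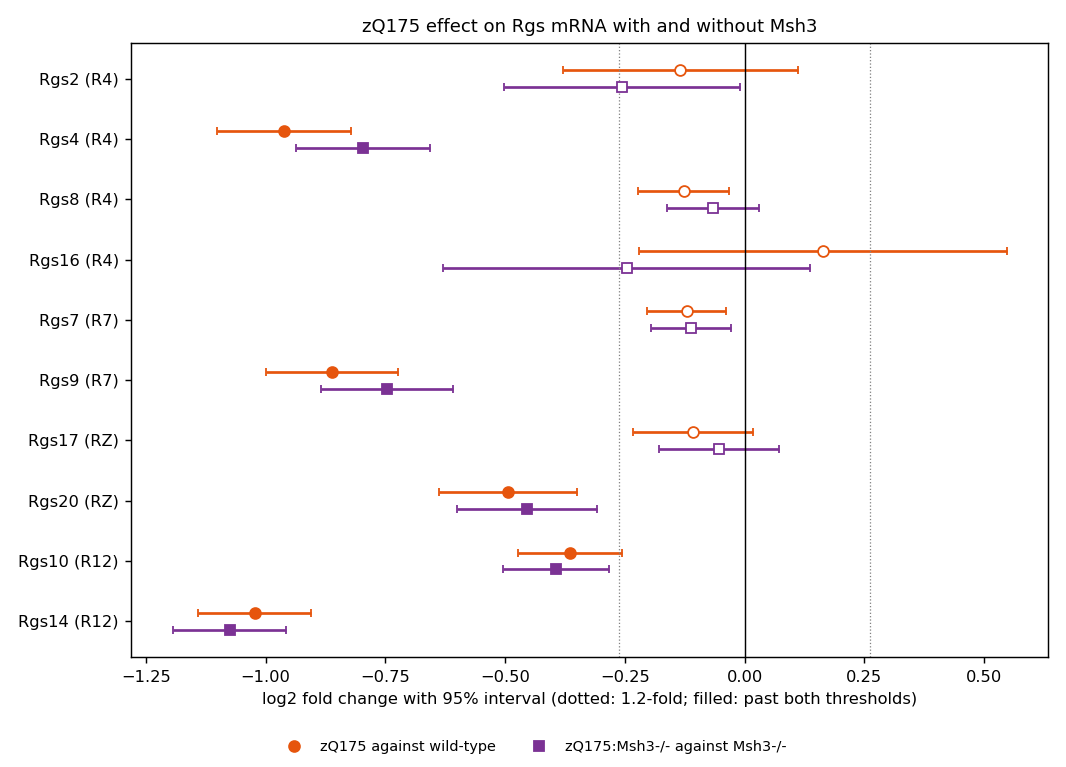
Log2 fold change of each Rgs gene, with its 95% interval, in zQ175 against wild-type mice (circles) and in zQ175:Msh3-/- against Msh3-/- mice (squares), 8 mice per group. Filled symbols passed both thresholds, dotted lines mark a 1.2-fold change. Rgs14 and Rgs4 lie farthest to the left, at -1.02 and -0.96 in the first comparison, and the intervals of the 2 comparisons overlap for every gene.

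Loss of Msh3 was then tested by itself and within zQ175 mice. Between zQ175:Msh3-/- and zQ175 mice 0 of the 10 genes were called by edgeR or DESeq2, 0 had an unadjusted p under 0.05, and 0.00602% of all genes were called. For the 5 genes that fell with zQ175 the 95% intervals of the log2 difference were -0.11 to 0.17 for Rgs4, -0.07 to 0.20 for Rgs9, -0.08 to 0.16 for Rgs14, -0.19 to 0.11 for Rgs20 and -0.18 to 0.05 for Rgs10. These intervals do not reach the size of the zQ175 changes of the same genes. In the absence of zQ175, Msh3-/- against wild-type, 0 genes were called by edgeR or DESeq2, 0 had an unadjusted p under 0.05, and 0.00602% of all genes were called. Rgs4 had a log2 fold change of -0.14 ± 0.0682 with an adjusted p of 0.926, although an exact permutation test on its own log2 CPM values had p = 0.00699, and Rgs16 one of 0.34 ± 0.188 (adjusted p = 0.926). The interaction, which asks whether the zQ175 effect differs with Msh3, was called for 0 of the 10 genes by edgeR or DESeq2, 0 had an unadjusted p under 0.05, and 0% of all genes were called. The interaction terms of the 10 genes ran from -0.41 for Rgs16 (95% interval -0.95 to 0.13) to 0.17 for Rgs4 (95% interval -0.03 to 0.36).

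RGS proteins work with partners that stabilise them or hold them at membranes and synapses. Of 7 such partner genes 6 were tested, and 5 fell and 0 rose in zQ175 mice, where 6.89% of all genes tested were called as lower. In zQ175:Msh3-/- against Msh3-/- mice 5 of the 6 fell, where 5.96% of all genes were called as lower. Gnb5 encodes the β5 subunit, the obligate partner of the R7 proteins, and ran from 245 through a median of 276 to 308 CPM in wild-type and from 180 through 205 to 230 CPM in zQ175 mice, without overlap (log2 fold change -0.45 ± 0.0537, adjusted p = 2.88e-08). Rgs7bp, which anchors R7 proteins at the membrane, ran from 618 through 669 to 747 CPM and from 392 through 436 to 507 CPM (log2 fold change -0.62 ± 0.0547, adjusted p = 2.86e-11). Rgs7bp showed the largest decrease of the 6 partners in both comparisons, at -0.51 (adjusted p = 3.66e-09) in the absence of Msh3. Gpr158, an orphan receptor that recruits Rgs7, fell by 0.46 on the log2 scale (SE 0.0482, adjusted p = 1.76e-09) and its relative Gpr179 was at 0.900 ± 0.256 CPM in wild-type mice and was not called (log2 fold change 0.02, adjusted p = 0.969). The scaffolds spinophilin (Ppp1r9b) and neurabin (Ppp1r9a), which bind RGS proteins and receptors in dendritic spines, had log2 fold changes of -0.48 ± 0.0450 (adjusted p = 1.2e-10) and -0.46 ± 0.0452 (adjusted p = 3.81e-10). Rgs9bp did not pass the filter on low counts.

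Of 11 other Rgs genes that were counted, 7 were tested, and in zQ175 mice 1 fell and 1 rose. Over all genes tested 6.89% were called as lower and 4.70% as higher, and with 7 genes such counts do not set the list apart. Rgs11, an R7 gene, ran from 23.7 through 28.0 to 31.6 CPM in wild-type and from 16.5 through 19.9 to 23.4 CPM in zQ175 mice (log2 fold change -0.49 ± 0.0689, adjusted p = 7.84e-07). Rgs19, an RZ gene whose protein binds the scaffold GIPC, was the gene that rose, from 5.82, 7.56 and 8.81 CPM in wild-type to 9.62, 11.0 and 11.7 CPM in zQ175 mice (log2 fold change 0.55 ± 0.0880, adjusted p = 7.78e-06). Neither gene overlapped between these groups, where 6.63% of all genes did not. Both were called in the same direction without Msh3, at -0.54 (adjusted p = 1.58e-07) and 0.51 (adjusted p = 3.36e-05). There 5.96% of all genes were called as lower and 4.68% as higher. Rgs5, a gene of pericytes and other mural cells, had a log2 fold change of -0.17 ± 0.0571 (adjusted p = 0.0236), under the fold threshold, and of 4 pericyte markers 1 fell and of 5 endothelial markers 3 fell; the part of these cells in the Rgs5 value was not tested. Log2 fold changes were -0.22 ± 0.0971 for Rgs12 (adjusted p = 0.104), 0.04 for Rgs3 (adjusted p = 0.658), 0.08 for Rgs6 (adjusted p = 0.425) and -0.10 for Rgs22 (adjusted p = 0.825). The R7 genes thus comprised genes that fell (Rgs9 and Rgs11) and genes not called (Rgs6 and Rgs7). The RZ genes comprised a gene that fell (Rgs20), a gene that rose (Rgs19) and a gene not called (Rgs17). Rgs1, Rgs13, Rgs18 and Rgs21 did not pass the filter on low counts.

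**Figure D4:**
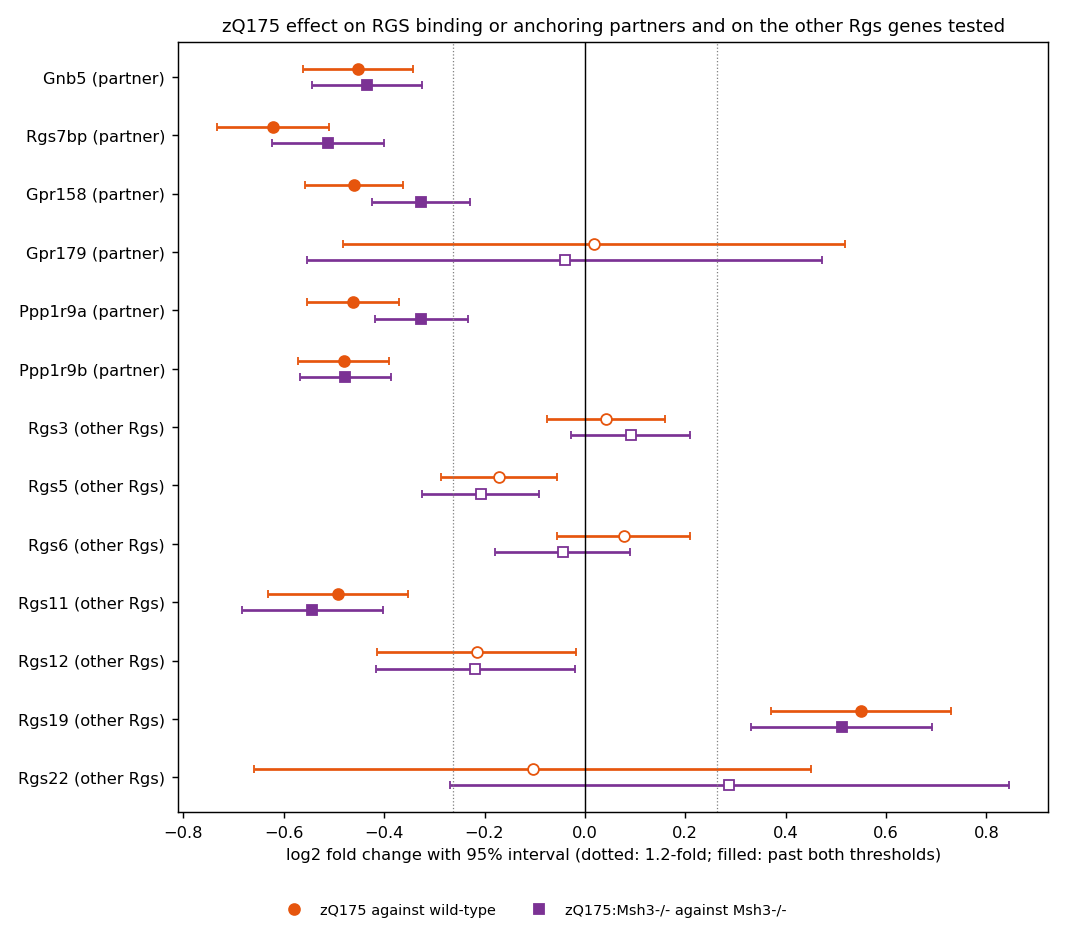
Log2 fold change with 95% interval of the 6 tested RGS partner genes and the 7 other tested Rgs genes, in zQ175 against wild-type (circles) and zQ175:Msh3-/- against Msh3-/- mice (squares), 8 mice per group, with symbols filled where both thresholds were passed. The partners lie to the left of 0 in both comparisons, apart from Gpr179 in the first, and Rgs19 is the gene to the right of the 1.2-fold line in both comparisons, at 0.55 and 0.51.

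The other layers of G protein signalling were counted in zQ175 mice by the same thresholds, which called 6.89% of all genes tested as lower and 4.70% as higher. Differences between these layers were not tested. Of 19 tested striatal G protein-coupled receptors 13 fell and 1 rose, with a median log2 fold change of -0.54. Adora2a, the adenosine receptor of indirect pathway neurons, fell by 1.03 on the log2 scale (adjusted p = 2.34e-17), and Htr2c, a serotonin receptor, rose by 0.60 (adjusted p = 0.000332). Of 13 Gα genes 1 fell and 0 rose, a share near that of all genes, with a median of 0.04. The gene that fell was Gnal, which encodes the stimulatory Gαolf of striatal neurons, at a mean of 851 ± 48.8 CPM in wild-type and 675 ± 43.8 CPM in zQ175 mice (log2 fold change -0.33 ± 0.0451, adjusted p = 4.02e-07). Gnao1, the Go subunit on which the R7 proteins act, had a log2 fold change of -0.23 (adjusted p = 1.74e-06), under the fold threshold, and was named after its value was seen. Of 14 effectors 3 fell and 0 rose, with Adcy5, the main striatal adenylyl cyclase, at -0.85 (adjusted p = 4.68e-15) and Plcb1, a phospholipase activated by Gq, at -0.60 (adjusted p = 1.96e-13). Of 12 immediate early genes 2 fell and 0 rose, Egr2 at -1.45 (adjusted p = 0.00589) and Dusp1 at -0.50 (adjusted p = 0.0437).

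In zQ175:Msh3-/- against Msh3-/- mice, where 5.96% of all genes were called as lower and 4.68% as higher, 12 of the 19 receptors fell and 1 rose, 1 of the 13 Gα genes fell, 3 of the 14 effectors fell and 4 of the 12 immediate early genes fell. Between zQ175:Msh3-/- and zQ175 mice 0 genes of these lists, of the partners and of the other Rgs genes were called by edgeR, with 1 receptor and 1 effector at an unadjusted p under 0.05.

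Among mice of the same genotype some of the 10 genes varied together. Each gene's log2 CPM was set relative to its genotype mean, and 75 relations over 32 mice were tested by permutation within genotype, with Benjamini-Hochberg adjustment. Of the 45 pairs of members, 8 had an adjusted p under 0.05 for Pearson's r, 5 positive and 3 negative. The strongest was the opposite variation of Rgs9 and Rgs16 (r = -0.72, adjusted p = 0.000750, Spearman's rho = -0.72, adjusted p = 0.00150), which had the same sign in all 4 genotypes, from -0.83 to -0.54, and r was -0.68 without the 2 mice farthest from the median of Rgs9. Rgs8 varied with Rgs9 (r = 0.63, adjusted p = 0.00720, rho = 0.64, adjusted p = 0.00619), with r = 0.51 without 2 mice. Rgs10 and Rgs14 of the R12 subfamily were weakly related (r = 0.51, adjusted p = 0.0469, rho = 0.53, adjusted p = 0.0461), with r = 0.48 without 2 mice. Rgs4 was in none of the 8 pairs. All values of a mouse come from 1 dissection and 1 library.

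The level of cortical markers among mice moved with 2 of the genes. The log2 of the summed CPM of the 6 cortical markers was negatively related to Rgs9 (r = -0.70, adjusted p = 0.000750, rho = -0.61, adjusted p = 0.00619) and positively to Rgs16 (r = 0.71, adjusted p = 0.00150, rho = 0.71, adjusted p = 0.00187). Without the 2 mice farthest from the median marker level r was -0.59 for Rgs9 and 0.67 for Rgs16, and the signs held in all 4 genotypes. In zQ175 against wild-type mice 0 of the 6 cortical markers were called by edgeR and 0 had an unadjusted p under 0.05, with a median log2 fold change of 0.61. In zQ175:Msh3-/- against Msh3-/- mice 0 were called and 1 had an unadjusted p under 0.05, with a median of 0.61. In zQ175:Msh3-/- against wild-type mice 1 was called as higher (Fezf2, named after its value was seen, log2 fold change 0.59, adjusted p = 0.0413) and 3 had an unadjusted p under 0.05, with a median of 0.90. With the marker level as a covariate, a fit added after the data were seen, Rgs9 had a log2 fold change of -0.80 in zQ175 mice (adjusted p = 3.18e-15). Rgs4 was at -0.99, Rgs20 at -0.47 and Rgs10 at -0.34, and these 4 genes were all called, as was Rgs14. The part of cortical tissue in these values was not tested. In the same fit Rgs16 was at 0.01 in zQ175 mice (adjusted p = 0.963) and at -0.44 in zQ175:Msh3-/- against Msh3-/- mice (adjusted p = 0.0207), where it was called and had not been without the covariate. The interaction of zQ175 and Msh3 for Rgs16 in that fit was -0.46 ± 0.196 (SE, adjusted p = 0.954) and was not called. Choroid plexus markers were negatively related to Rgs4 by rank (rho = -0.58, adjusted p = 0.00825, r = -0.42, adjusted p = 0.0523, r without 2 mice -0.42), and to Rgs8 by Pearson's r (r = -0.51, adjusted p = 0.0320, rho = -0.48, adjusted p = 0.0541, r without 2 mice -0.51), with the same sign in all 4 genotypes for both genes. With the choroid plexus marker level as a covariate, also added after the data were seen, Rgs4 had a log2 fold change of -0.98 in zQ175 mice (adjusted p = 6.33e-14). The part of choroid plexus in the Rgs4 value was not tested.

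Rgs2 varied with the immediate early genes. Relative to the genotype mean, its log2 CPM was related to the mean log2 CPM of the 12 immediate early genes (r = 0.61, adjusted p = 0.0135, rho = 0.54, adjusted p = 0.0461). The relation was uneven, since r was 0.44 without the 2 mice farthest from the median, and ran from -0.01 to 0.95 within genotypes. The widest Rgs2 range was that of Msh3-/- mice, from 100 through 141 to 188 CPM. The other 9 genes had no adjusted p under 0.05 with the immediate early genes, and the largest r among these was that of Rgs9 (r = 0.43, adjusted p = 0.0919, rho = 0.28, adjusted p = 0.311).

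**Figure D5:**
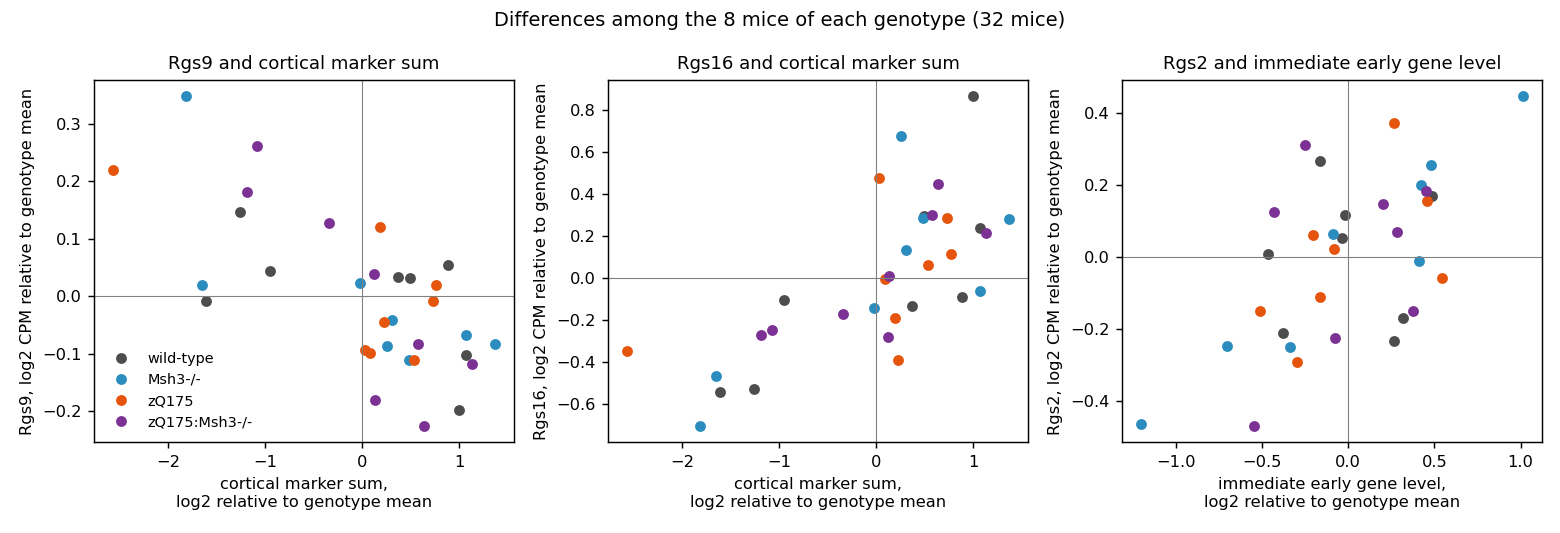
Variation among the 8 mice of each genotype (32 points, coloured by genotype): Rgs9 (left) and Rgs16 (middle) against the summed level of 6 cortical markers, and Rgs2 (right) against the mean level of 12 immediate early genes, all as log2 values relative to the genotype mean. Rgs9 falls and Rgs16 rises along the cortical marker axis (r = -0.70 and 0.71), and Rgs2 rises along the immediate early gene axis (r = 0.61).

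For each of the 5 genes that fell, the genes with the most similar variation among mice of the same genotype were listed as a description, by Pearson's r of relative log2 CPM over 32 mice. For Rgs4 these were Ano3 (r = 0.85), Nptn (0.79) and Zfp365 (0.79). For Rgs9 they were Pcp4l1 (r = 0.87), Syt6 (0.86) and Adcy5 (0.86). For Rgs20 they were Sik3 (r = 0.82), Smap2 (0.80) and Nanos1 (0.78), for Rgs14 St6galnac5 (r = 0.77), Dtd1 (0.77) and Ankrd6 (0.76), and for Rgs10 2410015M20Rik (r = 0.73) and Zcchc18 (0.73). No gene stood in the first 3 of more than 1 of the 5. None of the 10 genes differed between the sexes at an adjusted p under 0.05 in a model of genotype and sex, in which 0.313% of all genes were called, and 0 had an unadjusted p under 0.05. The smallest unadjusted p, 0.0615, was that of Rgs4, with a male minus female log2 difference of -0.09.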

How the data were processed

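RNA was extracted from dissected striata, libraries were prepared with poly(A) selection, and paired-end reads were processed by the authors on GRCm38.p6. The aligner, the counting program and its strand setting are not given in the sources used here. The authors deposited raw counts per gene for each mouse. The authors also deposited a length-normalised table, which its name calls FPKM but whose columns have the same sum in every mouse, so it was treated as TPM. Columns were matched to mice by mouse number and groups were taken from the labels, which name each sample as a separate mouse.

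Counts were tested with edgeR 4.0.16 in R 4.3.3 (TMM normalisation, a filter on low counts within the 4 groups, robust quasi-likelihood tests, 1 model of the 4 genotypes), and p-values were adjusted by the Benjamini-Hochberg method over 16610 genes. A gene was called when its adjusted p was under 0.05 and its fold change at least 1.2. DESeq2 1.42.0, the tool of the study, was an alternative with the same thresholds, because edgeR was the main test for counts here. CPM are TMM-normalised, and TPM were used to compare levels between genes, and between groups only where the text names TPM. For single members, log2 CPM was in addition set between groups by an exact permutation test (two-sided), and relations among mice by 100000 permutations within genotype. Intervals are 95%. With a common biological coefficient of variation of 0.0985, 8 mice a group gave the standard errors printed beside each fold change. The methods were checked on simulated data.

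Gene names and positions were taken from GENCODE M21, which held 54495 of the 54532 gene identifiers, and promoter windows from RefSeq. All 10 members, all tested partner and other Rgs genes, up to 2 raised and 2 lowered genes of each further list with the smallest adjusted p, Msh3, and the 3 genes most like each member that fell were named by rule, and 2 genes that the rule gives are not reported here. The members and gene lists were chosen with earlier results of these data known. The alternatives were RLE size factors, no filter, at least 10 counts in every mouse, sex as a term, only the groups compared, glmTreat with a 1.2-fold minimum, a replicate block, log2(TPM + 1) or log2(TPM + 0.1) in limma 3.58.1, which understates changes of low genes, each sex alone, each mouse left out, and 2 marker covariates added after the data were seen. Figures were drawn with matplotlib 3.10.9, and summaries used pandas 2.3.3, scipy 1.17.1 and numpy 2.4.6 under Python 3.11.15.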

Additional observations from a re-analysis of the deposited data

Results flagged for a closer look

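In 2 of 40 sets of 8 mice (10 genes in 4 genotypes) 1 mouse stood apart from its group, where chance is expected to give 2. In Msh3-/- mice the highest Rgs9 value was 718 CPM, and the other 7 mice were at 522 to 573 CPM. The gap on the log2 scale was 0.708 of the group's whole range, above Dixon's 95% critical value. This mouse raised the Rgs9 mean of the Msh3-/- group, and with any 1 of the 32 mice left out the log2 fold change of Rgs9 between zQ175:Msh3-/- and Msh3-/- mice stayed between -0.79 and -0.69. In the same genotype the lowest Rgs20 value was 43.0 CPM, the others being at 51.7 to 60.2 CPM, a gap of 0.549 of the range. The Rgs20 fold change in that comparison stayed between -0.50 and -0.43 when single mice were left out.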

How the results depend on the processing

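In zQ175 against wild-type mice the count of members called was 5 under every alternative but glmTreat, where it was 4 and Rgs10 was not called (adjusted p = 0.172). In zQ175:Msh3-/- against Msh3-/- mice the count was 4 to 6. Rgs10 was not called there with glmTreat (adjusted p = 0.0770) and Rgs20 in females alone (log2 fold change -0.48, adjusted p = 0.0509), whereas Rgs2 was called in males alone (-0.43, adjusted p = 0.00811) and without Msh3-/- female replicate 3 (-0.32, adjusted p = 0.0492), and Rgs16 with the cortical covariate (-0.44, adjusted p = 0.0207). The causes were not tested. Of 890 fold changes recomputed under alternatives other than a mouse left out, 885 kept their call, and of 1920 with a mouse left out 1919 did. Most of these values were not called in the main fit, so that keeping their call meant staying uncalled. Each mouse was also left out for comparisons that did not contain its group. These shares therefore do not measure how robust the called changes are. No called value changed sign, but values that were not called did, such as that of Rgs2 in Msh3-/- against wild-type mice, which was 0.10 and ran from -0.24 to 0.43. The adjusted p of Rgs7 in zQ175 mice ran from 0.0136 to 1 and that of Rgs8 from 0.0128 to 1 over the alternatives, with fold changes under 1.2 throughout. These ranges include glmTreat, which tests against a 1.2-fold change and so gives a high adjusted p to smaller changes. With sex and replicate number as a replicate block the count was 5 in both zQ175 comparisons, and it changed no call. The numbers do not pair the mice: the deviations of mice of the same sex and number had a median correlation of 0.05 over 45 pairs, against 0.06 over 147 other pairs of the same sex. Over all genes 1925 were called in zQ175 mice, and 641 with glmTreat, of which 23.9% were higher. Rgs16, the member with the lowest level, had the least precise estimates of the 10 genes, and the reason was not tested.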
